A study of Canis lupus familiaris with 45 samples.

Results

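SMTN, KCNJ8 and ACTA2 are used as markers of the contractile cells of the vessel wall. They were followed here in the left ventricle of dogs developing heart failure. Every probe set that the array annotation assigns to 1 of these symbols alone was taken, which gave 3 of 6540 genes named by a single symbol, and 7 of the 23836 probe sets on the array. SMTN was measured by 4 of them, KCNJ8 by 2 and ACTA2 by 1. Of the 7 probe sets, 6 passed the filter on low signal and were among the 14302 tested.

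Smooth muscle α-actin, encoded by ACTA2, forms the thin filaments of contractile smooth muscle cells, and smoothelin, encoded by SMTN, is an actin-binding protein found in smooth muscle cells that contract. KCNJ8 encodes Kir6.1, the pore of the vascular ATP-sensitive potassium channel, whose opening relaxes vessels. In the heart these genes are used as labels for the coating of arteries, arterioles and capillaries. ACTA2 and SMTN stand for smooth muscle cells, and KCNJ8 for pericytes together with smooth muscle cells. Whether other cells of the tissue add to the SMTN and KCNJ8 signal was not tested. ACTA2 is also switched on in fibroblasts that become myofibroblasts.

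Transmural pieces of left ventricle were collected from 15 male, age-matched dogs, 3 in each of 5 groups. Day-0 dogs were unpaced. In the other groups a pacemaker drove the right ventricle at 240 ppm. Day-3, Week-1 and Week-2 dogs were paced for the time in their group's name, and End-stage dogs for 3 to 4 weeks until end-stage heart failure. Each piece gave 3 RNA isolations, hybridised to 1 array each, for 45 arrays in all. The labels mention no implanted but unpaced dog, so that surgery, the lead and pacing cannot be told apart. A whole piece of ventricle holds mostly muscle, and in such bulk tissue fewer vessel-wall cells and less RNA per vessel-wall cell cannot be told apart.

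The number of dogs limits the precision. Over the tested probe sets the median SD was 0.31 between isolations of a dog and 0.27 between dogs of a group, both on the log2 scale. RNA quality was read from the GAPDH control probe sets as the ratio of 3-prime to 5-prime signal, which was 0.965 in the mean of the Day-0 dogs and 0.933 to 0.957 in the paced group means. Over all tested probe sets 38 of 45 arrays correlated best with another isolation of the same dog. Of the 7 others, 6 came from paced dogs numbered 1 and matched another paced dog numbered 1, and 1 array of Week-2 dog 2 matched End-stage dog 2. Over 200 probe sets that told other dogs apart, 41 of 45 arrays correlated best with another isolation of the same animal, when set against the animals that carry the same number in the other groups. The 4 exceptions were all 3 arrays of Week-1 dog 1 and 1 array of End-stage dog 1, which matched each other's dog. Without these 2 dogs the 12 differences of tested members at Week-1 and End-stage kept their sign and moved by at most 0.18 log2, and the values that moved most are given both ways. Cardiomyocyte genes were measured for 9 of 13 listed symbols and their mean level per dog lay between 12.68 and 13.30 log2 in all groups. In each of the 5 groups dog 1 had the lowest cardiomyocyte level. The defining smooth muscle genes ACTA2, MYH11, TAGLN and MYL9 all passed the signal filter, whereas the pericyte genes RGS5, PDGFRB, CSPG4, NOTCH3 and ABCC9 had no probe set with a single symbol.

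No member probe set passed an adjusted p of 0.05 in any comparison. All 6 tested probe sets nevertheless had estimates below 0 in each of the 4 comparisons with Day-0, where between 49.2% and 54.6% of all tested probe sets did. The 4 comparisons share the 3 Day-0 dogs and the probe sets of 1 gene share a transcript, so these estimates are not separate pieces of evidence. At End-stage the estimates ran from -0.71 to -0.34 log2, with a median of -0.44, while the median of all tested probe sets was -0.02. In 5 of the 6 probe sets every End-stage dog lay below every Day-0 dog, against 7.94% of all tested probe sets. SMTN supplied 4 of the 6, and the members were chosen with earlier results of these data known. The counts are therefore descriptions.

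**Figure D1:**
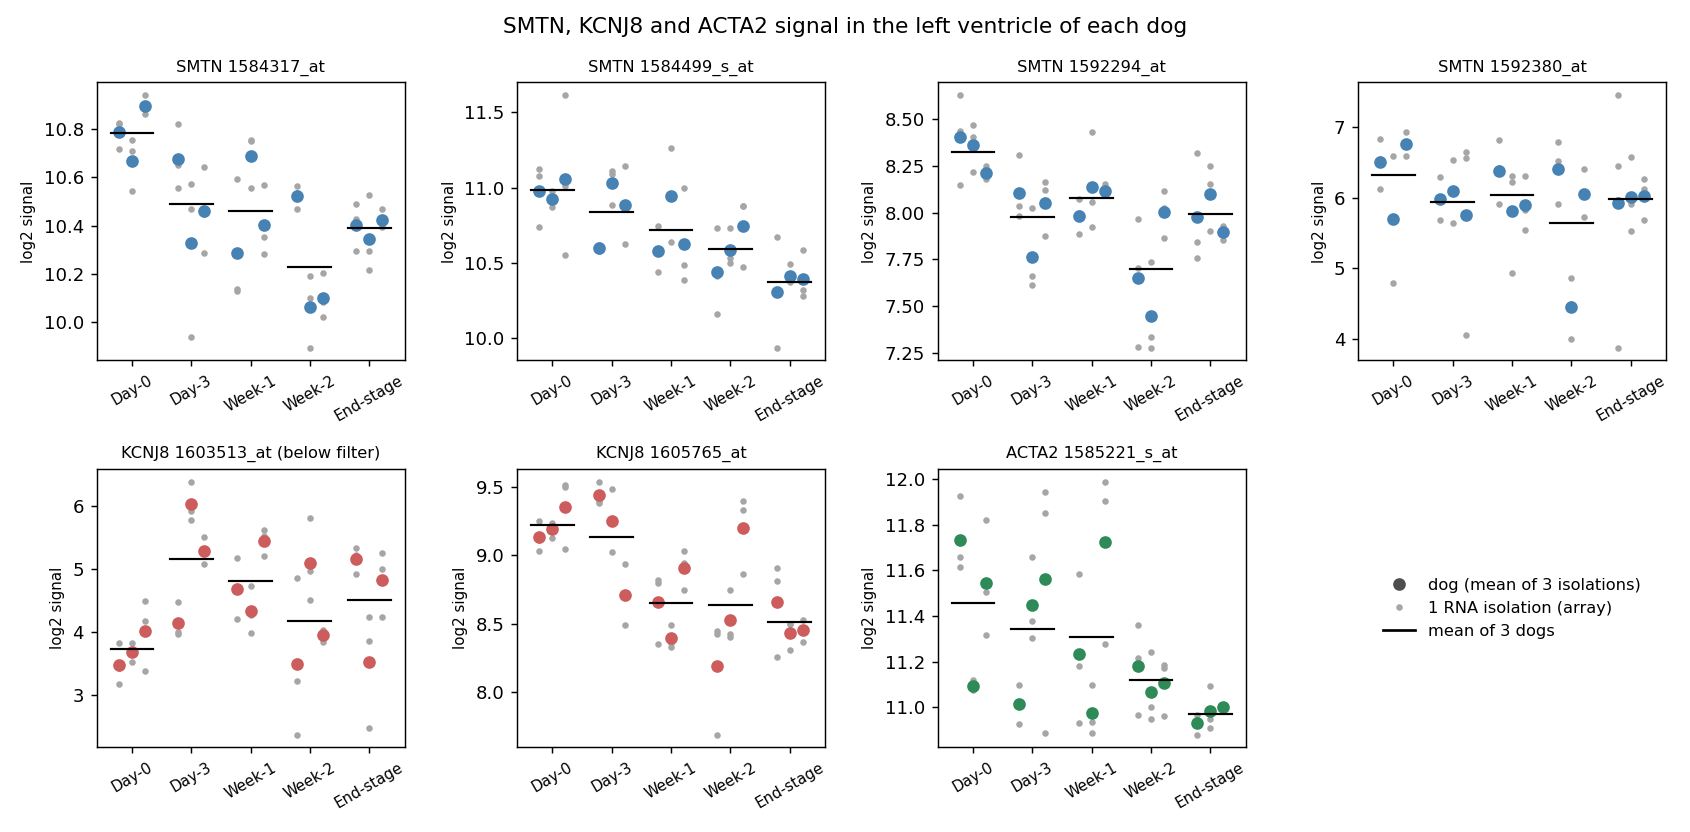
Log2 signal of the 7 SMTN, KCNJ8 and ACTA2 probe sets by group. Large points are dogs (mean of 3 RNA isolations), small grey points single isolations and black lines the mean of 3 dogs. In all panels but that of KCNJ8 1603513_at, which lies below the signal filter, the Day-0 mean is the highest of the 5 group means.

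ACTA2 was measured by probe set 1585221_s_at. Its log2 signal in the Day-0 dogs was 11.73, 11.09 and 11.55. The Day-3 dogs had 11.02, 11.45 and 11.56, and the Week-1 dogs 11.23, 10.97 and 11.72. Dogs were spread widely within each of these 3 groups, which overlapped.

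In the Week-2 dogs ACTA2 signal was 11.18, 11.07 and 11.11, and in the End-stage dogs 10.93, 10.98 and 11.00. All 3 End-stage dogs lay below all Day-0 dogs (7.94% of tested probe sets) and also below all Week-2 dogs (5.4%). The SD between dogs was 0.33 in Day-0, 0.29 in Day-3 and 0.38 in Week-1, but 0.058 in Week-2 and 0.037 in End-stage. Of all tested probe sets, 2.28% had an End-stage SD as small or smaller. This share was also low for SMTN 1584317_at (2.85%), 1592380_at (4.47%) and 1584499_s_at (5.27%). For SMTN 1592294_at and KCNJ8 1605765_at it was 15.5% and 21.1%. Isolations of a dog had an ACTA2 SD of 0.24. The difference in SD between groups was not tested.

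The group means of ACTA2 followed the order of pacing, from 11.46 in Day-0 through 11.34, 11.31 and 11.12 to 10.97 at End-stage. Neighbours in this order overlapped except Week-2 and End-stage. How many tested probe sets have group means in such an order was not counted. The ACTA2 mean of Week-2 and End-stage differed from that of Day-3 and Week-1 by -0.28 log2 (SE 0.14, adjusted p = 0.9997, limma). Against Day-0, End-stage ACTA2 differed by -0.49 log2 (SE 0.20, adjusted p = 0.504, limma). The 95% interval of that difference ran from -0.90 to -0.07. Without Week-1 dog 1 and End-stage dog 1 it was -0.47 (adjusted p = 0.663). The estimates were -0.12 at Day-3, -0.15 at Week-1 and -0.34 at Week-2, with adjusted p between 0.557 and 0.952.

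The early ACTA2 estimates depended on single dogs. Without Day-0 dog 1 the Day-3 estimate was 0.02, and without Day-3 dog 1 it was 0.05. Without Week-1 dog 2 the Week-1 estimate was 0.02. At End-stage, leaving out any of the 6 dogs gave values between -0.67 and -0.35.

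The suffix of 1585221_s_at marks probes that can match more than 1 transcript, and actin genes are near-identical in their coding sequence, so other actin isoforms may add to its signal; this was not tested. The other actins were read by their probe set with the highest signal. ACTG2, the smooth muscle γ-actin, differed by -0.80 log2 at End-stage (SE 0.32, adjusted p = 0.498), and by -1.56 in its other tested probe set. ACTC1, the cardiac α-actin, differed by -0.22, and the cytoplasmic actins ACTB and ACTG1 by -0.11 and 0.01, with adjusted p between 0.899 and 0.999.

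ACTA1, the skeletal α-actin, was the only actin gene that passed the test. Its probe set 1605145_at was at 9.78, 10.15 and 9.65 log2 in the Day-0 dogs and between 6.39 and 8.91 in the 12 paced dogs. In the mean of the 4 paced groups it fell by 1.58 on the log2 scale (SE 0.29, adjusted p = 0.044). The other 3 ACTA1 probe sets differed by -0.17 to -0.04 in the same comparison and did not pass, so the probe sets of this gene disagree. The call of 1605145_at ended when any of 12 of the 15 dogs was left out (adjusted p from 0.0506 to 0.250), without Week-1 dog 1 and End-stage dog 1 (0.0737), under median centring (0.0740), with the median of isolations (0.0774) and without the intensity trend (0.106). ACTA2 differed by -0.27 there (SE 0.15, adjusted p = 0.557), where 0.301% of tested probe sets were called.

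SMTN was read by 4 probe sets, whose End-stage differences ran from -0.61 to -0.34. For 1584499_s_at the Day-0 dogs had 10.98, 10.92 and 11.06 log2. The Day-3 dogs had 10.60, 11.03 and 10.88, and the Week-1 dogs 10.58, 10.94 and 10.62. These 2 groups each held 1 dog within the Day-0 range and 2 below it.

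The Week-2 dogs had 10.44, 10.59 and 10.74, and the End-stage dogs 10.31, 10.41 and 10.39. Week-2 and End-stage both lay entirely below Day-0 (9.21% and 7.94% of tested probe sets). The End-stage dogs lay below every dog of the other 4 groups. That ordering held in 4.42% of tested probe sets against Day-3, 2.9% against Week-1 and 5.4% against Week-2. The group means followed the order of pacing, 10.99, 10.84, 10.72, 10.59 and 10.37, in which only the last neighbours did not overlap. The share of tested probe sets with such an order of means was not counted.

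At End-stage 1584499_s_at differed from Day-0 by -0.61 log2 (SE 0.13, 1.53-fold lower, adjusted p = 0.178, limma). It ranked 27 among the 14302 tested probe sets by p, and 2 probe sets (0.014%) were called in that comparison. Without End-stage dog 1 and Week-1 dog 1 the difference was -0.58 (adjusted p = 0.268). Its estimates at the earlier stages were -0.15, -0.27 and -0.40. The mean of Week-2 and End-stage differed from that of Day-3 and Week-1 by -0.30 log2 (SE 0.094, adjusted p = 1.00), a comparison that does not use the Day-0 dogs and in which 0% of probe sets were called.

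For SMTN 1584317_at the Day-0 dogs had 10.79, 10.67 and 10.90 log2. The Day-3 dogs had 10.68, 10.33 and 10.46, the Week-1 dogs 10.29, 10.69 and 10.40. In each of these groups 1 dog reached the lowest Day-0 dog and 2 lay below it. The Week-2 dogs had 10.52, 10.06 and 10.10, and the End-stage dogs 10.40, 10.35 and 10.42, all below Day-0. Of all tested probe sets, 9.21% lay below Day-0 at Week-2 and 7.94% at End-stage in this way.

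The lowest mean of 1584317_at was at Week-2, where it differed by -0.55 log2 (SE 0.14, 1.47-fold lower, adjusted p = 0.130, limma). At that stage 12 probe sets (0.0839%) were called. The estimate at End-stage was -0.39 (adjusted p = 0.436), and those at Day-3 and Week-1 were -0.30 and -0.32. Without Week-1 dog 1 the Week-1 estimate was -0.24.

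SMTN 1592294_at was the one probe set in which all 12 paced dogs lay below all 3 Day-0 dogs. Day-0 dogs had 8.41, 8.36 and 8.21 log2. Day-3 dogs had 8.11, 7.76 and 8.05, Week-1 dogs 7.98, 8.14 and 8.12, Week-2 dogs 7.65, 7.45 and 8.00, and End-stage dogs 7.97, 8.10 and 7.90. Of all tested probe sets, 1.61% showed the 12 paced dogs below the 3 Day-0 dogs.

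The mean of the 4 paced groups of 1592294_at differed from Day-0 by -0.39 log2 (SE 0.11, 1.31-fold lower, adjusted p = 0.154, limma). The Week-2 difference was -0.63 (SE 0.14, 1.54-fold lower), with an adjusted p of 0.0982, the smallest of any member in any comparison with Day-0. Its other estimates were -0.35 at Day-3, -0.25 at Week-1 and -0.34 at End-stage. The paced groups did not follow the length of pacing: Week-1, End-stage and Day-3 had means of 8.08, 7.99 and 7.97 and overlapped, with Week-2 lowest at 7.70.

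The fourth SMTN probe set, 1592380_at, was noisy. Isolations of the same dog differed with an SD of 0.76 log2. Day-0 dogs had 6.51, 5.70 and 6.76, and the 12 paced dogs lay between 4.45 (Week-2 dog 2) and 6.41. The groups overlapped throughout. Its estimates against Day-0 were between -0.69 and -0.29 with an SE of 0.39, and adjusted p lay between 0.557 and 0.916. Without Week-2 dog 2 the Week-2 estimate was -0.09. Without Week-1 dog 1 and End-stage dog 1 the Week-1 estimate was -0.47 in place of -0.29.

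The 4 SMTN probe sets therefore placed the Day-0 mean highest, but differed in the stage with the lowest mean: End-stage in 1584499_s_at and Week-2 in the other 3. Across 15 dogs their pairwise Pearson r was 0.19 to 0.68. After each group's mean was subtracted it was -0.18 to 0.39. Their SD between dogs of a group was 0.15 to 0.55, against 0.15 to 0.76 between isolations of a dog. How far noise lowered the r within groups was not tested. These correlations are descriptions over dogs that share scaling and array type. The suffix of 1584499_s_at also marks probes that may match more than 1 transcript.

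KCNJ8 signal was read from 1605765_at. The Day-0 dogs had 9.13, 9.19 and 9.35 log2, and the Day-3 dogs 9.44, 9.25 and 8.71. Day-3 thus held the highest dog of the study and 1 dog below Day-0. The Week-1 dogs had 8.66, 8.39 and 8.91, all below Day-0, as in 9.4% of all tested probe sets.

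The Week-2 dogs had 8.19, 8.53 and 9.20, and the End-stage dogs 8.66, 8.43 and 8.45. Week-2 held both the lowest dog and 1 dog inside the Day-0 range, with an SD of 0.51. End-stage lay entirely below Day-0 (7.94% of all tested probe sets) and below Day-3 (4.42%). The group means were 9.23, 9.14, 8.65, 8.64 and 8.52 in the order of pacing, and neighbouring groups overlapped. The share of tested probe sets with such an order was not counted. The mean of Week-2 and End-stage differed from that of Day-3 and Week-1 by -0.32 log2 (SE 0.16, adjusted p = 0.9997, limma).

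At End-stage KCNJ8 1605765_at differed from Day-0 by -0.71 log2 (SE 0.23, 1.64-fold lower, adjusted p = 0.346, limma). This was the largest End-stage difference among the 6 tested member probe sets, with a 95% interval from -1.20 to -0.22. It was -0.78 without End-stage dog 1 and Week-1 dog 1 (adjusted p = 0.462). The estimates were -0.57 at Week-1 (adjusted p = 0.458), where 0.028% of probe sets were called, and -0.59 at Week-2 (adjusted p = 0.347). Without Week-2 dog 3 the Week-2 estimate was -0.87, and without Week-2 dog 1 it was -0.36.

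At Day-3 the KCNJ8 estimate was -0.09 (adjusted p = 0.971), in a comparison in which 0% of tested probe sets were called. Without Day-3 dog 3 it was 0.12. The step between Day-3 and Week-1, a difference of means of -0.48, was the largest between neighbouring groups for this gene, but the 2 groups overlapped.

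The second KCNJ8 probe set, 1603513_at, had a mean signal of 22.2, just under the filter at 22.8, and was not tested. Its Day-0 dogs were at 3.47, 3.68 and 4.02 log2 with the lowest mean of the 5 groups. The paced dogs lay between 3.48 and 6.02, with Day-3 at 4.14, 6.02 and 5.29. Every Day-3 and every Week-1 dog lay above every Day-0 dog, as did 9 of all 12 paced dogs. This probe set is outside the tested ones, so no share of those is set beside it. Its difference from Day-0 was 1.43 at Day-3, 1.09 at Week-1, 0.45 at Week-2 and 0.78 at End-stage, opposite in sign to 1605765_at. Without End-stage dog 1 and Week-1 dog 1 the End-stage difference was 0.45. Across 15 dogs the r between both KCNJ8 probe sets was 0.004. Which of them follows the transcript was not tested. KCNJ11, ABCC8 and ABCC9, the other subunits of ATP-sensitive potassium channels, had no probe set with a single symbol.

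**Figure D2:**
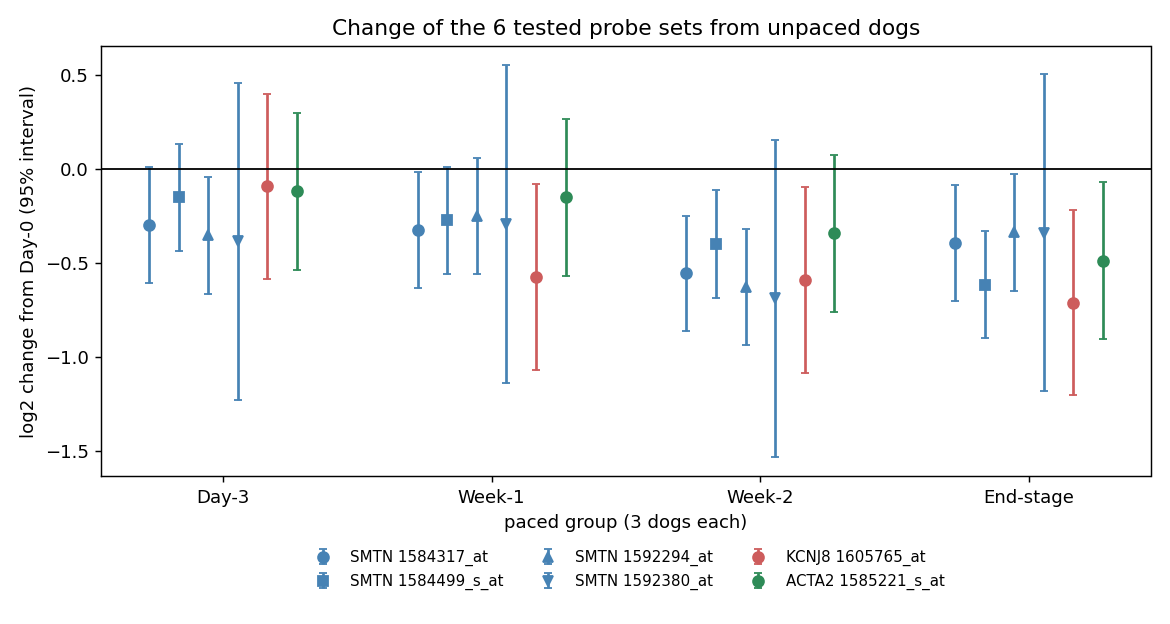
Log2 difference from Day-0 of the 6 tested probe sets in each paced group of 3 dogs, with 95% intervals from the limma fit. All 24 estimates lie below 0, and none passed the adjusted threshold; the intervals are not adjusted for the number of probe sets.

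By comparison, member probe sets lying entirely below Day-0 numbered 1 of 6 at Day-3 (6.44% of all tested probe sets), 2 at Week-1 (9.4%), 3 at Week-2 (9.21%) and 5 at End-stage (7.94%). An unadjusted p under 0.05 with a negative sign was found for 1, 2, 4 and 5 of them, against 4.35%, 5.1%, 6.14% and 4.53% of all tested probe sets. Since the members were chosen with earlier results known and 4 of the 6 belong to SMTN, these counts only describe them. The moderated F test for any difference among the 5 groups gave members adjusted p values between 0.362 and 0.956. That test called 0% of all probe sets, and 7.37% had an unadjusted p under 0.05.

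The other smooth muscle genes were counted on a list of 13 symbols written with earlier results of these data known. Of these, 11 had a probe set and 10 were tested, each by its probe set with the highest signal. At End-stage 0 of 10 passed the limma test, 5 had an unadjusted p under 0.05 with a negative sign (4.53% of all tested probe sets), and all 10 estimates lay below 0 (54.3% of all tested probe sets), with a median of -0.49. Without ACTA2 and SMTN, 3 of 8 had an unadjusted p under 0.05, 8 of 8 lay below 0 and the median was -0.43, where all tested probe sets had -0.02. Without Week-1 dog 1 and End-stage dog 1 the median of the 10 was -0.50. Under median centring of the arrays 9 of 10 lay below 0. At Day-3, Week-1 and Week-2 the medians were -0.13, -0.14 and -0.36, with 7, 9 and 7 of 10 below 0. Without Week-1 dog 1 and End-stage dog 1 the Week-1 median was -0.09, with 7 of 10 below 0.

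The size of the End-stage difference varied within the list. MYH11, the smooth muscle myosin heavy chain, differed by -0.69 log2 (SE 0.29, adjusted p = 0.546). MYL9, the regulatory light chain of that myosin, differed by -0.52 (SE 0.14, adjusted p = 0.243), and its 4 probe sets lay between -0.58 and -0.46. SYNPO2 and KCNMB1, the β subunit of the smooth muscle BK channel, differed by -0.50 and -0.35.

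TAGLN, the actin-associated transgelin, differed by -0.20 at End-stage, and the thin-filament genes CALD1 and TPM2 by -0.09 and -0.01. These 3 genes are also expressed outside smooth muscle. That is not particular to them, and how far other cells add to any of the 10 genes was not tested. The other TAGLN probe sets gave -0.57 to 0.31. TPM2 was read differently by its other tested probe set, at -0.36. The mean level of the 10 genes per dog, relative to the Day-0 mean, was -0.45 to -0.41 in the End-stage dogs, -0.40 to -0.19 in the Week-2 dogs and -0.11 to 0.11 in the Day-0 dogs. Day-3 and Week-1 each held dogs above and below 0.

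**Figure D3:**
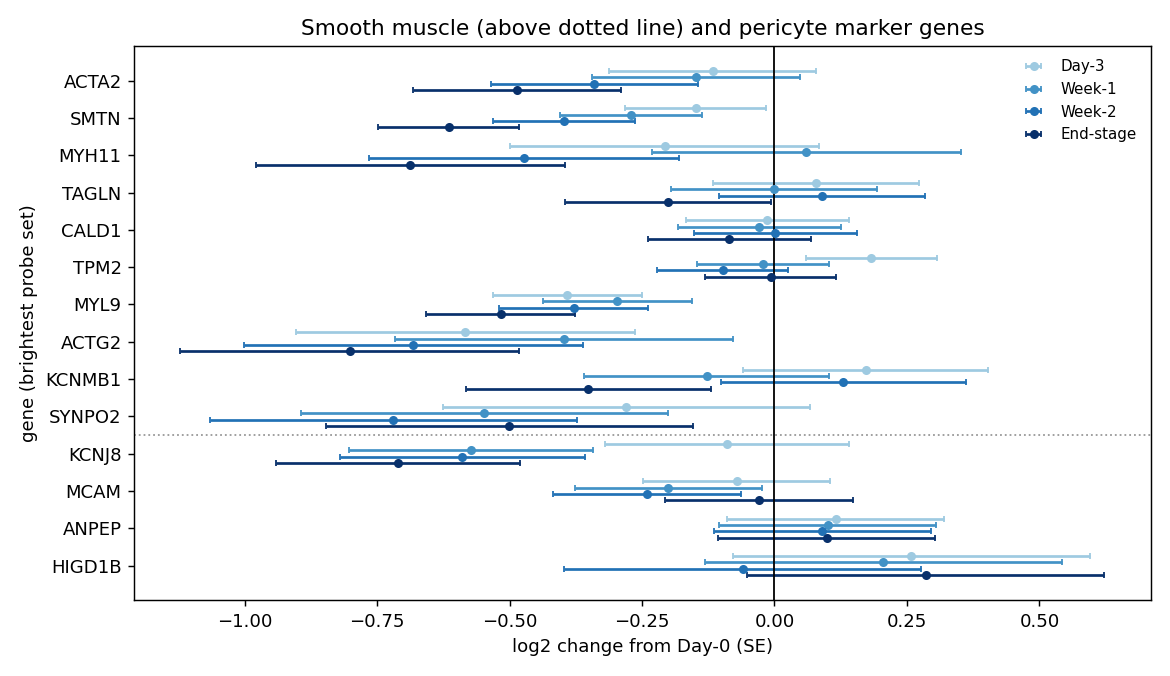
Log2 difference from Day-0 (± SE) for 10 smooth muscle genes and, below the dotted line, 4 pericyte genes, 1 probe set a gene, by paced group. All 10 smooth muscle genes sit left of 0 at End-stage, CALD1 and TPM2 by less than 1 SE. Among the pericyte genes only KCNJ8 lies beyond 1 SE below 0 there.

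Of 11 pericyte symbols, 5 had a probe set and 4 were tested, including KCNJ8. None of the 4 passed the limma test in any comparison with Day-0, and KCNJ8 alone had an unadjusted p under 0.05. At End-stage MCAM differed by -0.03, ANPEP by 0.10 and HIGD1B by 0.29, so the 3 genes other than KCNJ8 had a median of 0.10. The other tested HIGD1B probe set was at -0.52, so that gene has no agreed direction. These 3 genes are also found on other cells, and the pericyte list here is too short to stand for the cell type.

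Genes that regulate smooth muscle contraction were measured for 9 of 18 symbols and 7 were tested. At End-stage 0 passed the limma test, 0 had an unadjusted p under 0.05, and their median difference was -0.11. GUCY1B1, a subunit of the nitric oxide receptor, differed by 0.45 with all End-stage dogs above Day-0 (6.33% of all tested probe sets), PPP1CB, a catalytic subunit of protein phosphatase 1, by -0.22, and EDNRA, an endothelin receptor, by -0.04. Of 16 symbols around serum response factor and myocardin, which drive ACTA2 and SMTN transcription, 9 were tested. At End-stage 0 passed and 2 had an unadjusted p under 0.05, 1 of them with a negative sign (4.53% of all tested probe sets). The median was -0.15, or -0.05 without Week-1 dog 1 and End-stage dog 1. The co-regulators FHL2 and FHL1 differed by -0.34 and 0.89, and TGFBR2, a receptor of TGF-β, by 0.50. MYOCD, myocardin itself, was among them and differed by -0.29 (SE 0.25).

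For the other cell types of the tissue, 0 genes of the lists passed the limma test at End-stage. An unadjusted p under 0.05 with a negative sign was found for 0 of 7 endothelial, 1 of 9 cardiomyocyte, 0 of 5 fibroblast and 0 of 8 macrophage genes. The share over all tested probe sets was 4.53%. In either direction the counts were 1, 1, 0 and 1. The median difference was -0.08 over 7 endothelial genes, -0.15 over 9 cardiomyocyte genes, 0.43 over 5 fibroblast genes and 0.19 over 8 macrophage genes. Without Week-1 dog 1 and End-stage dog 1 these medians were 0.17, 0.01, 0.56 and 0.17, so the endothelial and cardiomyocyte medians changed sign. Under quantile normalisation the cardiomyocyte median was -0.0029. The mean level of the endothelial genes in the End-stage dogs ranged from -0.18 to 0.14 relative to the Day-0 mean, and in the Day-0 dogs from -0.13 to 0.07. That of the cardiomyocyte genes ranged from -0.42 to 0.01 at End-stage and from -0.33 to 0.17 in Day-0, and that of the fibroblast genes from 0.17 to 0.75 and from -0.48 to 0.56. Their part in the member values was not tested. Of the brightest genes of these lists, AQP1, VWF and PECAM1 of endothelium differed by -0.14, 0.41 and 0.05, and MYH7, TNNI3 and TNNT2 of cardiac muscle by -0.13, -0.09 and -0.18. The matrix genes DCN, COL1A2 and FN1 differed by -0.04, 0.43 and 0.71, and CSF1R, C1QA and CD14 of macrophages by 0.17, 0.21 and -0.09.

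The genes most like each member were named by Pearson r over the 15 dogs among 7668 other probe sets with a single symbol. ACTA2 was closest to MYH11, with r = 0.94, and then to both probe sets of CCDC3 (0.92 and 0.89), to ACTG2 1599410_s_at (0.88) and to the tropomyosin gene TPM1 (0.78). With group means subtracted, ACTA2 and MYH11 still had r = 0.96. MYH11 was at 9.65, 8.74 and 9.21 log2 in the Day-0 dogs and 8.89, 8.89 and 10.00 in the Week-1 dogs, so that Day-0 dog 2 was low and Week-1 dog 3 high in both genes. In the End-stage dogs MYH11 was at 8.46, 8.60 and 8.47.

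Markers of other cells were also high in some of the dogs with high ACTA2. ADIPOQ, which encodes the fat-cell hormone adiponectin, was the only adipocyte gene tested. Its highest dog was also the highest dog for ACTA2 in 5 of 5 groups: 6.08 log2 in Day-0 dog 1, 8.15 in Day-3 dog 3, 8.58 in Week-1 dog 3, 6.89 in Week-2 dog 1 and 5.71 in End-stage dog 3. At Week-2 and End-stage the SD of ACTA2 between dogs was 0.058 and 0.037, against 0.24 between isolations of a dog. Which dog was highest for ACTA2 there is therefore uncertain. Over the 15 dogs ADIPOQ ran from 3.78 to 8.58, with some dogs under the filter level of 4.51. Its r with ACTA2 was 0.49, or 0.58 with group means subtracted. With SMTN 1584499_s_at and KCNJ8 1605765_at, r with ADIPOQ was -0.03 and -0.37. Relative to the Day-0 mean, the fibroblast genes were 1.29 and the macrophage genes 0.77 higher in Week-1 dog 3, and 1.21 and 0.77 higher in Day-3 dog 3. Other dogs with high ACTA2 went the other way. These lists were at -0.08 and -0.04 in Day-0 dog 1, the highest dog for ACTA2, and at -0.48 and -0.19 in Day-0 dog 3. The r of ACTA2 with the means of these lists was 0.06 and 0.22, or 0.27 and 0.40 with group means subtracted. The part of these cells in the ACTA2 signal was not tested.

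**Figure D4:**
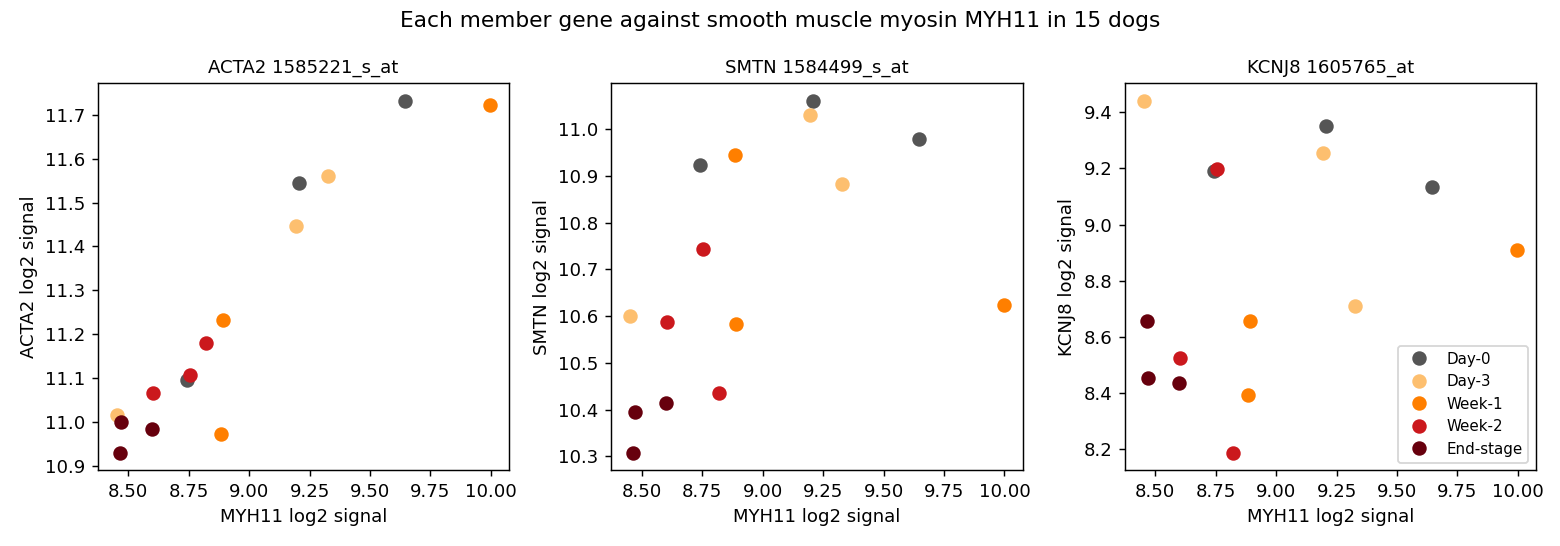
ACTA2, SMTN 1584499_s_at and KCNJ8 1605765_at against MYH11, all as log2 signal, in 15 dogs coloured by group. ACTA2 is higher where MYH11 is higher (r = 0.94), whereas SMTN (r = 0.53) and KCNJ8 (r = 0.26) scatter widely.

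SMTN and KCNJ8 followed MYH11 less closely than ACTA2 did. The r with MYH11 was 0.25 to 0.53 for the 4 SMTN probe sets and 0.26 for KCNJ8, and -0.16 to 0.17 and -0.03 with group means subtracted. SMTN with ACTA2 had r between 0.28 and 0.56, and KCNJ8 with ACTA2 0.38. For SMTN 1584499_s_at the r with ACTG2 and TAGLN was 0.65 and 0.45, or 0.50 and 0.47 with group means subtracted. With MYL9 these values were 0.75 and 0.57. With CALD1, TPM2, KCNMB1 and SYNPO2 the r was 0.01 to 0.28, or -0.42 to 0.01 with group means subtracted. The r of this probe set with the mean of the cardiomyocyte genes was 0.57, and 0.76 with group means subtracted. The other SMTN probe sets did not share this, with r of -0.12 to 0.24, and -0.27 to 0.06 with group means subtracted. For ACTA2 those values were 0.03 and -0.14. Dog 1, the lowest dog for cardiomyocyte genes in every group, was also the lowest for SMTN 1584499_s_at in 4 of 5 groups. For each other SMTN probe set it was the lowest in 1 of 5 groups, and for KCNJ8 1605765_at and ACTA2 in 2 of 5. The differences between these correlations were not tested.

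The 5 genes closest to SMTN 1584499_s_at were PPT2, ALG2, PSMA4, MRPS15 and NDUFS4, with r from 0.77 to 0.84. SMTN 1584317_at was closest to MSRB1 (0.90), PYROXD1, RCL1, VARS2 and DAO, and SMTN 1592294_at to LMO3 (0.89), PPM1J, EHBP1, NOL7 and PGM1. SMTN 1592380_at was closest to G3BP1 (0.84), ABCA1, ENO4, NHSL1 and KIZ. No gene was named for more than 1 SMTN probe set, and none of the 20 was on the smooth muscle list. KCNJ8 1605765_at was closest to SQOR (0.84), TANK (0.83), ANKRD1 (0.83), MCTS1 (0.79) and LOC481774 (0.79). ANKRD1, a stress-responsive gene of cardiac muscle, differed by -0.63 log2 between End-stage and Day-0.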

How the data were processed

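Each deposited value is the signal intensity of a probe set on a linear scale, made by the authors with GCOS 1.4 and MAS5 per the submitters' processing notes. They were scaled per array: with the lowest and highest 2% removed, the mean of every array was 150.02 to 150.026. The 77 control probe sets were left out of 23913. Probe sets were named from the platform annotation.

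Log2 signals of the 3 isolations were averaged per dog, which made the animal the replicate, and the dimmest 40% of probe sets (by mean log2 signal) were dropped. One limma 3.58.1 fit in R 4.3.3 (eBayes with an intensity trend) covered all 15 dogs, with two-sided p values adjusted by Benjamini-Hochberg over 14302 probe sets and a threshold of 0.05. The code was tested on simulated data.

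The members, the 12 gene lists and the comparisons were chosen with earlier results of these data known. All member probe sets are named. For each tested one, the 5 most correlated other probe sets with a single symbol are named. Every tested smooth muscle, pericyte and actin gene may be named by its probe set with the highest signal, and from other lists the 3 with the highest signal. MYOCD, second probe sets of a gene and ANKRD1's difference were chosen after their values were seen. The match of the highest dogs for ADIPOQ and ACTA2 was not among the planned comparisons. Adipocyte and erythrocyte lists were also written: of the first only ADIPOQ was tested, with differences from Day-0 of 0.84, 1.67, 0.41 and -0.02 in the order of pacing (2.56 at Week-1 and 0.47 at End-stage without Week-1 dog 1 and End-stage dog 1), and of the second 0 genes were tested. No sequences or coordinates are given, since no matching reference was used here.

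Alternatives were the signal filter, quantile normalisation, median centring, log2(signal + 16), no intensity trend, the median of isolations, a fit of the 45 arrays with a random effect of the animal, the dog number as a block, only the groups compared, each dog left out, and Week-1 dog 1 and End-stage dog 1 left out together.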

Additional observations from a re-analysis of the deposited data

How the results depend on the processing

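The 6 tested probe sets gave 36 differences between groups. Outside the fit that treats the 45 arrays as samples with the dog as a random block, none passed the threshold under any alternative, and none changed sign except when single dogs were left out. In that fit of arrays, 7 differences passed: SMTN 1584317_at at Week-2 (-0.55) and in the mean of the paced groups (-0.39), SMTN 1584499_s_at at End-stage (-0.61), SMTN 1592294_at at Week-2 (-0.63) and in the paced mean (-0.39), and KCNJ8 1605765_at at End-stage (-0.71) and in the paced mean (-0.49). Its F test passed with adjusted p values of 0.0261 for 1584317_at, 0.0467 for 1592294_at and 0.0177 for KCNJ8. That fit takes 1 correlation between isolations for all probe sets, and the size of its p values rests on it.

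Leaving out 1 dog moved ACTA2 between -0.30 and 0.046 at Day-3 and between -0.35 and 0.020 at Week-1, KCNJ8 1605765_at between -0.24 and 0.12 at Day-3, and SMTN 1592380_at between -0.37 and 0.12 for late against early pacing. No call appeared among the 306 member differences obtained by leaving out a dog.

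Same-numbered dogs deviated together (r over 0.1 for all 3 numbers) in 3 of 10 pairs of groups, none with Day-0; r was above 0 in 27 of 30 same-numbered pairs and ran from -0.08 to 0.35. The labels do not say what a number marks, and whether dogs with 1 number share a source was not settled. With the dog number as a replicate block SMTN 1584499_s_at at End-stage kept -0.61 (adjusted p = 0.0773), and no call of a member changed. Over all probe sets the block moved the calls from 4 to 17 at Week-1, 12 to 88 at Week-2, 2 to 0 at End-stage and 43 to 219 in the paced mean. Quantile normalisation, median centring, log2(signal + 16) and the fit without Week-1 dog 1 and End-stage dog 1 gave 0 to 13 calls at Week-1, 4 to 24 at Week-2, 0 to 11 at End-stage and 14 to 68 in the paced mean.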

Other observations

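CCDC3, a secreted protein gene that was on no list, had 2 probe sets among the 5 closest to ACTA2 and was singled out after its values were seen. Its probe set 1584389_at was at 8.88, 8.16 and 8.33 log2 in the Day-0 dogs, 9.15 in Week-1 dog 3 and 7.90, 8.00 and 8.03 in the End-stage dogs. All End-stage dogs lay below all Day-0 dogs, as in 7.94% of all tested probe sets, and the difference was -0.48 (SE 0.26, adjusted p = 0.691, limma). The second probe set, 1598970_at, differed by -0.70 (adjusted p = 0.657). With group means subtracted the r of ACTA2 with these probe sets was 0.92 and 0.85.

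MYL9 did not follow ACTA2 between dogs although both had lower End-stage means. The r of ACTA2 was 0.24 with MYL9 over 15 dogs and -0.37 with group means subtracted, while SMTN 1584499_s_at had 0.75 and 0.57 with MYL9 and KCNJ8 1605765_at had 0.59 and 0.45. The other SMTN probe sets had 0.16 to 0.52 with MYL9, but only -0.15 to 0.07 with group means subtracted. These values were looked at after the likeness rule had been applied, were not tested, and rest on 15 dogs.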
